A study of Mus musculus with 50 samples.

Results

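The Mediator and general transcription machinery genes described here are the rows of a single-cell expression table whose symbols begin with Med, Polr, Taf or Gtf followed by the number of a subunit, polymerase or factor. The rule found 101 of 11879 gene rows, which fell into 14 complexes or families. The table held 50 single cells of 1 group, iHECs, which are hemogenic endothelial cells induced in culture from C57BL/6 mouse embryonic stem cells. All of them came from iRunx1-ESC, a line with a Runx1 expression cassette in the Rosa26 locus that doxycycline switches on, so no cell without the cassette was there to compare. Per the methods of the study, doxycycline was added to the cultures before the sort. The cells were sorted at day 11 as CD31+CD41lowCD45-c-kit+CD201high. Values are TPM (an abundance in which reads are scaled by transcript length and to a common total), so levels of different genes can be set side by side. A gene was called detected in a cell above TPM 1, a level the study used elsewhere, to choose genes for a map of cells from another line, and not as a call in these cells.

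Transcripts of the surface proteins required by the sort, and of the endothelial genes Cdh5, Esam, Kdr and Tek, were detected in most cells. Pecam1 (CD31), Procr (CD201), Cdh5, Esam and Kdr were detected in all 50 cells, Tek in 49, Kit in 47 and Itga2b (CD41) in 40, while Ptprc (CD45) was listed at 0 in all 50, which in a table without read counts does not show its absence. The median cell had 6223.5 genes above TPM 1. Cell 4-6, named by the numbers in its title, stood apart with 2400, below the next lowest cell at 4326, and the highest cell had 8615. Depth is unknown from TPM, the cells form 1 group in which the labels name no replicate, and no test between groups was possible. Intervals below are exact Clopper-Pearson 95% intervals and cover counting error over cells only.

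RNA polymerases I, II and III make the large ribosomal RNAs, the messenger RNAs and the transfer and other small RNAs of the cell. Each has 2 large catalytic subunits around the active site and a set of smaller ones, some of which all of these enzymes share. Polymerase II is placed on promoters by the general factors TFIIA to TFIIH, with TFIID, built from TATA-binding protein and the TAF proteins, reading the promoter first, and Mediator relays signals from DNA-bound activators to it. Most of these proteins are needed in every dividing cell, and their messenger RNAs are mostly of low or middling abundance.

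As a group the machinery was detected more widely than the table at large. Of the 101 genes, 82 (81.2%) were detected in 25 or more of the 50 cells, where 53.2% of all rows reached that number. The median gene was detected in 36 cells (72%), with quartiles at 50% and 92%, against a median of 52% over all rows. Only 4 (3.96%) were detected in fewer than 10 cells, against 23.4% of all rows. Detection in every cell did not follow that order, with 6 machinery genes (5.94%) against 7.15% of all rows. No machinery gene was listed at 0 throughout. Most of these genes were thus detected in some cells and not in others.

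The levels were also higher than those of the table. The median machinery gene had a median of 28.1 TPM over the 50 cells, against 2.1 TPM over all rows. Of the 5050 single values, 25.05% were listed at 0, 6.18% lay above 0 and up to 1 TPM, 8.28% above 1 and up to 10 TPM, and 60.5% above 10 TPM. Over all rows 42.5% of values were at 0. Subunits of the proteasome, another assembly found in nearly all cells, were detected in a median of 98% of cells over 39 rows, with 11.6% of values at 0. Zinc finger protein genes (Zfp, 304 rows) had a median of 28% and 59.4% of values at 0, so the machinery lay between these sets.

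**Figure D1:**
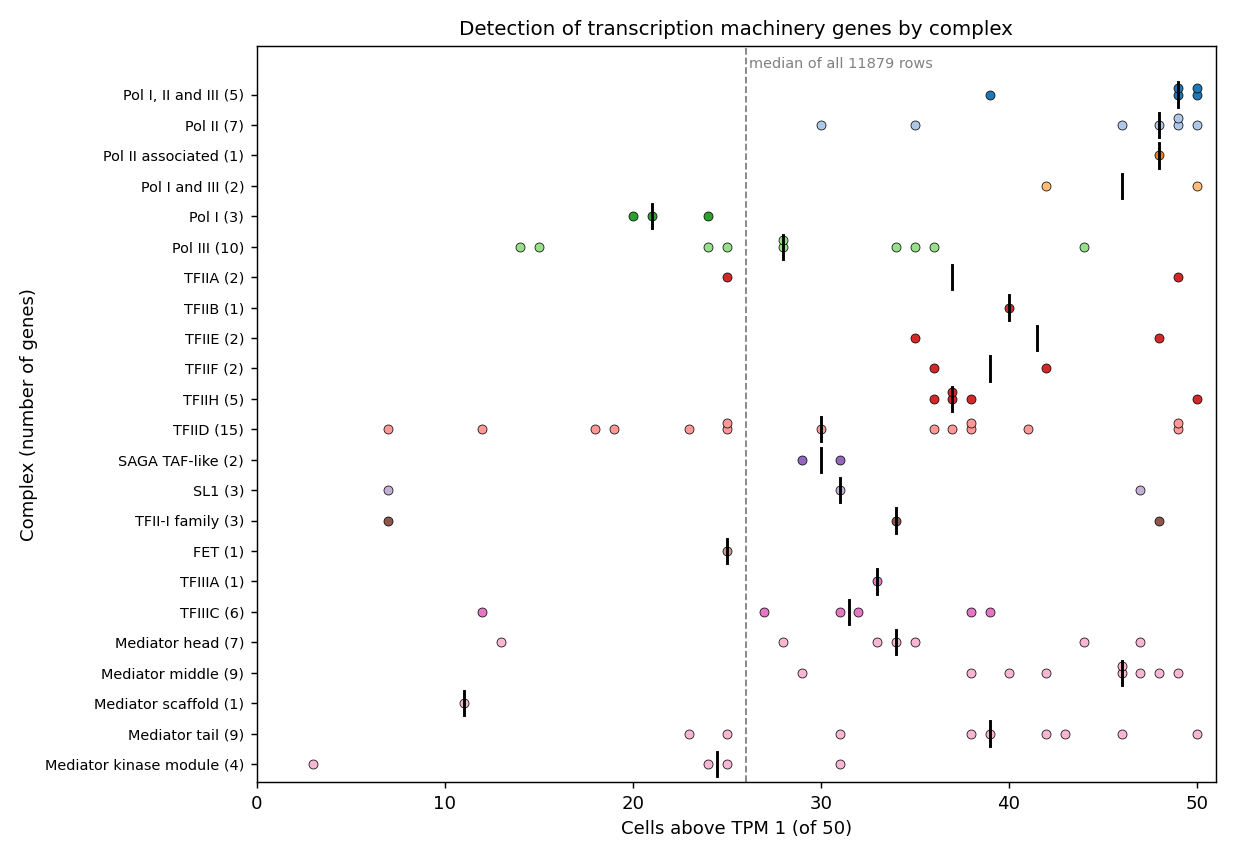
Number of cells (of 50) above TPM 1 on the horizontal axis for each of the 101 machinery genes (points), by complex or module on the vertical axis with the number of genes in brackets; the black bar is the median of each complex and the dashed line the median of all rows, 26 cells. Subunits shared by all polymerases and most Pol II subunits sit at the right. Polr1a, Polr1b and Polr1e of Pol I, Med14 and, apart from Med13l at 31 cells, the Mediator kinase module sit left of the dashed line. Pol I subunits under other symbols are not shown.

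Polymerase subunits ranged from the most constant genes of the set to some of the most sporadic. The 5 subunits shared by all polymerases (Polr2e, Polr2f, Polr2h, Polr2k and Polr2l) had a median share of 98%, with a median over genes of 199 TPM. Polr2e (chr10:80035949-80039795, minus strand, mm10) was the most abundant machinery gene, at 12.5 TPM in the lowest cell, 503 in the median cell and 2048 in the highest. Polr2f lay between 34.02 and 635 TPM with a median of 219, so both were present in every cell over a wide range. Polr2k was in 49 cells at a median of 199 TPM, and only Polr2h, in 39 cells at a median of 68.3 TPM, was often missing. All 5 shared subunits were detected together in 37 cells.

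The 7 subunits particular to Pol II by their annotation had a median share of 96% and a median over genes of 171 TPM. Polr2g, part of the stalk of the enzyme, was found in every cell between 9.46 and 698 TPM with a median of 292. Polr2c, a subunit of the assembly platform, was in 49 cells with a median of 201 and a highest value of 743 TPM. A share of 62.7% of the 50-base stretches of the Polr2c transcript occurs in other genes (among them the overlapping Dok4), as do 30.5% of those of Polr2k, 23.4% of those of Polr2f and 18.2% of those of Polr2h. The catalytic subunits behaved differently. Polr2a, the largest subunit (chr11:69733997-69758637, minus strand), was listed at 0 in 14 cells and above 0 and up to 1 TPM in 6 more, with a median of 2.04 and a highest value of 83.6 TPM. It was thus detected in 30 cells (60%, interval 45.2% to 73.6%). Polr2b, the second largest (chr5:77310147-77349324, plus strand), was detected in 35 cells at a median of 29.9 and a highest value of 249 TPM, and was listed at 0 in 5 cells. Polr2m, a protein that binds Pol II rather than a core subunit, was above 0 in every cell and above TPM 1 in 48, between 0.469 and 600 TPM with a median of 285.

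Counted together, the 12 Pol II subunits were all detected in 17 cells (34%, interval 21.2% to 48.8%), with a median of 11 and a lowest number of 6 per cell. This share depended on the level for detection, at 50% with every value above 0 counted, 18% at TPM 5 and 12% at TPM 10. Without Polr2a and Polr2b, the remaining 10 were all detected in 34 cells (68%, interval 53.3% to 80.5%). Polr2a and Polr2b were both detected in 23 cells and neither was in 8. At the level of TPM 1 the most common gaps in the enzyme were therefore at its catalytic subunits. The intervals of Polr2b (55.4% to 82.1%) and Polr2h (64.0% to 88.5%) overlap, though. Listed at 0 were Polr2b in 5 cells and Polr2h in 10. An mRNA median of 2.04 TPM for Polr2a and 503 TPM for Polr2e stood beside a protein complex that holds these subunits in equal number.

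The Pol I and Pol III catalytic subunits had lower shares and medians than Polr2a, though the intervals of Polr1a, Polr1b and Polr3a overlap that of Polr2a. Polr1a was detected in 20 cells (40%, interval 26.4% to 54.8%) with a median of 0.103 and a highest value of 91.5 TPM, and Polr1b in 21 cells with a median of 0 and a highest value of 100.4 TPM. Polr3a was in 24 cells at a median of 0.0870 and a highest value of 49.1 TPM, and Polr3b in 15 (30%, interval 17.9% to 44.6%) at a median of 0 and a highest value of 68.1 TPM. The intervals of Polr1a, Polr1b and Polr3a overlap widely, and these genes cannot be ordered. In the cells where they were detected, against 11.3 TPM for Polr2a, medians were 11.5 TPM for Polr1a, 27.8 for Polr1b, 14.1 for Polr3a and 12.5 for Polr3b. Polr1a and Polr1b were found together in 9 cells and both missing in 18, and Polr3a and Polr3b together in 6 and both missing in 17. No cell had all 6 catalytic subunits, the median cell had 3, and 5 cells had none.

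Smaller Pol I and Pol III subunits spanned a wide range. Polr1c and Polr1d, the assembly platform that Pol I and Pol III share, were in 42 and 50 cells at medians of 87.2 and 140.1 TPM. Polr1e, particular to Pol I, was in 24 cells and listed at 0 in the other 26. Pol I subunits under other symbols, some of them more often detected, are given with the partners below. Of the 10 Pol III subunits, Polr3k was the most often detected, in 44 cells at a median of 29.6 TPM, and Polr3f the least, in 14 cells at a median of 0 and a highest value of 100.6 TPM. The median share over the 10 was 56%. Polr3g and Polr3gl are alternative forms of the same Pol III subunit, of which Polr3g is known from pluripotent cells. Polr3gl was detected alone in 18 cells, Polr3g alone in 7, both in 18 and neither in 7, and Polr3gl had the higher TPM in 27 cells and Polr3g in 18.

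**Figure D2:**
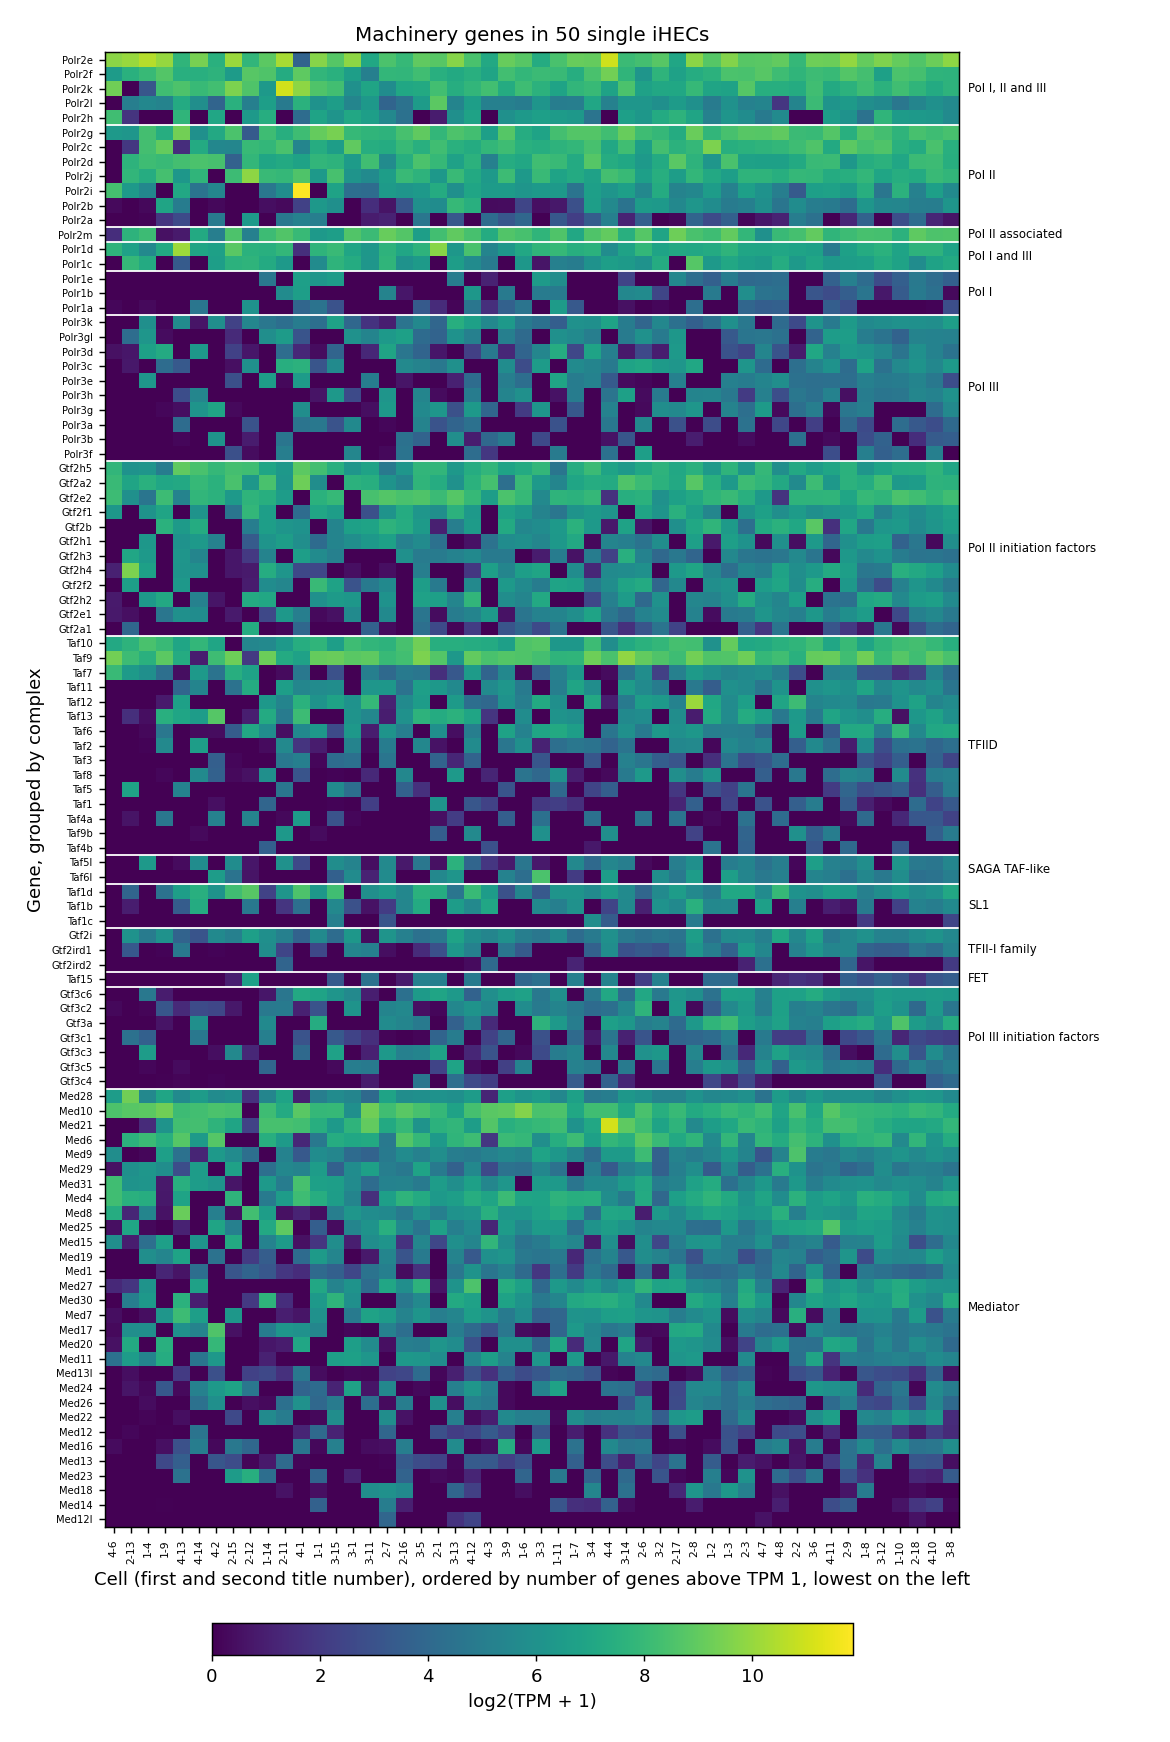
Each of the 101 machinery genes (rows, grouped by complex) in each of the 50 cells (columns, ordered from the fewest genes above TPM 1 on the left, cell 4-6, to the most on the right, cell 3-8), coloured by log2(TPM + 1). Rows such as Polr2e, Polr2f, Taf9 and Med10 are bright in nearly all columns, while rows such as Polr1a, Taf4b and Med12l are dark in most, and dark entries are more frequent on the left.

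Among the initiation factors of Pol II, 12 genes of TFIIA, TFIIB, TFIIE, TFIIF and TFIIH had a median share of 75% and none fell under 25 cells. Gtf2h5, the smallest TFIIH subunit, was in every cell between 23.4 and 502 TPM with a median of 146. Gtf2e2 was in 48 cells at a median of 208 and a highest value of 421 TPM. Gtf2b, which encodes TFIIB, the bridge between the bound promoter and the polymerase, was in 40 cells at a median of 78.0 TPM and listed at 0 in 8. Gtf2a1, the large TFIIA subunit, was the least often detected, in 25 cells at a median of 1.39 and a highest value of 155 TPM. Its partner Gtf2a2 was in 49 cells at a median of 167 TPM. The remaining TFIIH subunits were close to each other, between 36 and 38 cells, and all 5 were found together in 19 cells.

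Detection was uneven within TFIID. Its 15 genes had a median share of 60%, with 7 to 49 cells per gene. Taf9 was in 49 cells, from 0.955 to 946 TPM with a median of 384, and Taf10 in 49 at a median of 187 and a highest value of 627 TPM. These small TAFs also belong to the coactivator complex SAGA. Both genes overlap a neighbour, and 76.8% of the 50-base stretches of the Taf9 transcript occur in transcripts of other genes (among them the overlapping Ak6) and 49.1% of those of Taf10 (among them Ilk), so their values may contain reads of the neighbours. Taf1, the largest TAF, was in 19 cells at a median of 0 and a highest value of 64.5 TPM, and Taf5 in 23, listed at 0 in the other 27. Without Taf4b and Taf9b, alternative forms of Taf4a and Taf9, the 13 remaining TFIID genes were all detected in 3 cells, with a median of 8.5 per cell.

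The alternative TAFs differed in how they were shared among cells. Taf9 was higher than Taf9b in all 50 cells, and Taf9b was detected in 12 cells, all of them with Taf9. Taf4a was detected alone in 16 cells and Taf4b, known for its role in germ cells, alone in 5, with both in 2 and neither in 27. Taf5 and Taf6 have SAGA counterparts, Taf5l and Taf6l. Taf5l had the higher TPM in 37 cells and Taf5 in 7, whereas Taf6 had the higher TPM in 30 and Taf6l in 14. A share of 33.8% of the Taf6 transcript is held in common with the overlapping Ap4m1 and 18.8% of that of Taf5l with Gm13316. Since most of these genes were missing in many cells, detection alone in a cell does not show that its partner was not expressed.

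The promoter factors of Pol I and Pol III with symbols of the rule (3 and 7 genes) had median shares of 62% and 64%. These lay below the 75% of TFIIA to TFIIH without TFIID. Not counted here are Rrn3 and Ubtf of Pol I, in 43 and 34 cells. Nor are Brf1, Brf2 and Bdp1 of the Pol III factor TFIIIB, in 36, 24 and 27. SL1, which places Pol I on the ribosomal RNA genes, was represented by Taf1b (31 cells), Taf1c (7 cells) and Taf1d (47 cells, median 65.1 TPM). Among the 7 Pol III factors, Gtf3c6, the smallest TFIIIC subunit, was in 39 cells at a median of 57.3 TPM and Gtf3c4 in 12 at a median of 0 and a highest value of 24.02 TPM. Gtf3a, which encodes TFIIIA for the genes of 5S ribosomal RNA, was in 33 cells, listed at 0 in 16, and reached 391 TPM with a median of 37.2. It had the largest spread of the set, an SD of 3.09 of log2(TPM + 1). Its transcript shares 41.97% of its 50-base stretches with other transcripts, among them the overlapping Mtif3.

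Some genes carry the names of the general factors without being subunits of them. Gtf2i, a DNA-binding regulator of the TFII-I family, was in 48 cells at a median of 38.9 TPM. With a coding sequence of 2994 nucleotides, it had the highest share of the 30 machinery genes over 2400 nucleotides. Its neighbours Gtf2ird1 and Gtf2ird2 were in 34 and 7 cells, and Gtf2i was higher than Gtf2ird1 in 43 cells and lower in 6. Taf15, an RNA-binding protein of the FET family, was in 25 cells at a median of 0.916 and a highest value of 107 TPM.

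Mediator was represented by 30 genes with a median share of 76% and a median over genes of 28.9 TPM. Its modules differed. The middle module (9 genes) had a median share of 92%, the tail (9 genes) 78%, the head (7 genes) 68% and the kinase module (4 genes) 49%. The order of tail and head depends on counting Med27, Med28, Med29 and Med30, in 39, 50, 46 and 38 cells, with the tail. Med10 and Med21 of the middle module were in 49 and 48 cells at medians of 288 and 201 TPM, with highest values of 820 and 2163 TPM. Med28 was the only Mediator gene found in every cell, between 1.00 and 628 TPM with a median of 58.2. A share of 73.6% of the Med10 transcript is held in common with an overlapping gene model, Gm26819, while none of that of Med21 or Med28 is.

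The subunit at the centre of Mediator was among the least often detected. Med14 (chrX:12675369-12762073, minus strand), the scaffold that joins head, middle and tail, was detected in 11 cells (22%, interval 11.5% to 35.96%), listed at 0 in 33, and reached 31.1 TPM. Med18 of the head was in 13 cells, listed at 0 in 31 and reached 78.3 TPM. Neither gene shares more than 1.17% of its 50-base stretches with another gene. With Med12l and Med13l left aside as alternative forms, no cell had all 28 Mediator genes (interval 0% to 7.11%). The number per cell ran from 9 to 27 with a median of 21.

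In the kinase module, which docks on Mediator reversibly, Med12 and Med13 were near the detection level. Med12 was in 25 cells at a median of 1.08 and a highest value of 22.8 TPM, and Med13 in 24 at a median of 0.880 and a highest value of 38.9 TPM. Med12l was detected in 3 cells, each of which also had Med12, and reached 14.0 TPM. Med13l was detected in 31 cells at a median of 3.42 TPM, alone in 13 and with Med13 in 18, and Med13 alone in 6. Values above 0 and up to 1 TPM, which made up 6.18% of all machinery values, were found for Med13 in 10 cells and for Med13l in 11.

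Detection followed the level of the gene. Over the 101 genes, the share of cells and the mean TPM were related with a Spearman rho of 0.918, and over all rows with 0.921. The points share the same 50 libraries, and each share is computed from the same values as its mean. Among machinery genes with a mean of up to 5 TPM (9 genes) the median share was 22%, from 5 to 20 TPM (24 genes) 50%, from 20 to 80 TPM (44 genes) 74% and above 80 TPM (24 genes) 97%. All rows in the same ranges had medians of 12%, 44%, 74% and 96%. From a mean of 20 TPM upwards the medians were thus close, and below that the machinery had the higher ones. Genes were not matched by level within a range, and whether this accounts for the difference was not tested.

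**Figure D3:**
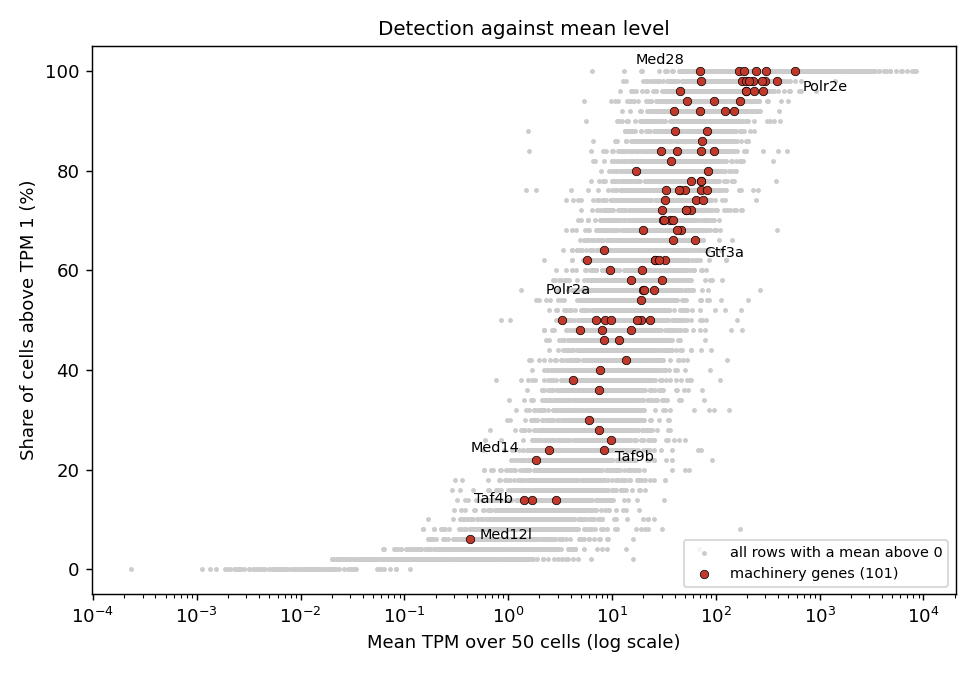
Share of cells above TPM 1 (%) against mean TPM over the 50 cells (log scale) for all rows with a mean above 0 (grey) and the 101 machinery genes (red). The machinery genes rise along the same band as the other rows, from Med12l at 6% to Polr2e at 100%.

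Some genes were missing in some cells and plentiful in others. Of the 101 genes, 63 were detected in 10 to 40 cells, and their median TPM in the cells where they were detected was 31.4, against 24.8 for the 5892 rows of the table in that range. Of these 63, 17 (26.98%) had a median of at least 50 TPM where detected, as had 1011 of the 5892 rows (17.2%), and these 17 were listed at 0 in 6 to 16 cells. Med30 is an example, listed at 0 in 12 cells and at a median of 85.8 TPM in the other 38, with an SD of 2.96 of log2(TPM + 1). Taf13 had the same SD, 2.96, and was at 0 in 9 cells and at a median of 72.8 TPM in the 37 where it was detected. The other genes with the largest SDs were Gtf2b, Gtf2h2, Gtf2h4, Med11, Med20, Med27 and Taf12, at 2.78 to 2.86, and Gtf3a. Of these, Gtf2h2 and Gtf2h4 of TFIIH were detected in 36 and 37 cells, Med11 and Med20 of the Mediator head in 33 and 34, Med27 in 39 and Taf12 in 38, each at 0 in 9 to 16 cells. Taf7, the TFIID subunit that binds Taf1, was in 41 cells at a median of 23.1 TPM. The spread was smallest where a gene was nearly always or hardly ever found, at an SD of 0.779 for Polr2f and 0.683 for Med12l. The median SD was 2.14 over the machinery and 1.92 over all rows, and 1.22 and 1.25 within the cells where a gene was detected.

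Longer genes were detected less often. Coding lengths from the GENCODE annotation ran with the share of cells at a rho of -0.65 over the 101 genes and with mean TPM at -0.71, against -0.22 and -0.36 over the 11400 rows with a coding length. With mean TPM held fixed by partial rank correlation, the relation of share to coding length was 0.02 in the machinery and 0.31 over all rows. That to transcript length was 0.29 in the machinery and 0.45 over all rows. At coding lengths of up to 600 nucleotides 23 machinery genes had a median share of 96% and a median of 68.3 TPM, and above 2400 nucleotides 30 genes had 49% and 0.822 TPM. Polr2a (5910 nucleotides), Polr1a (5151), Taf1 (5679), Med12 (6570) and Med14 (4377) are all in that last range, as is Gtf2i. TPM is already divided by transcript length. Very low values also varied with length: of the values above 0, 2.09% were at or below TPM 1 in the shortest range and 16.0% in the longest, against 3.99% and 14.5% for all rows.

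**Figure D4:**
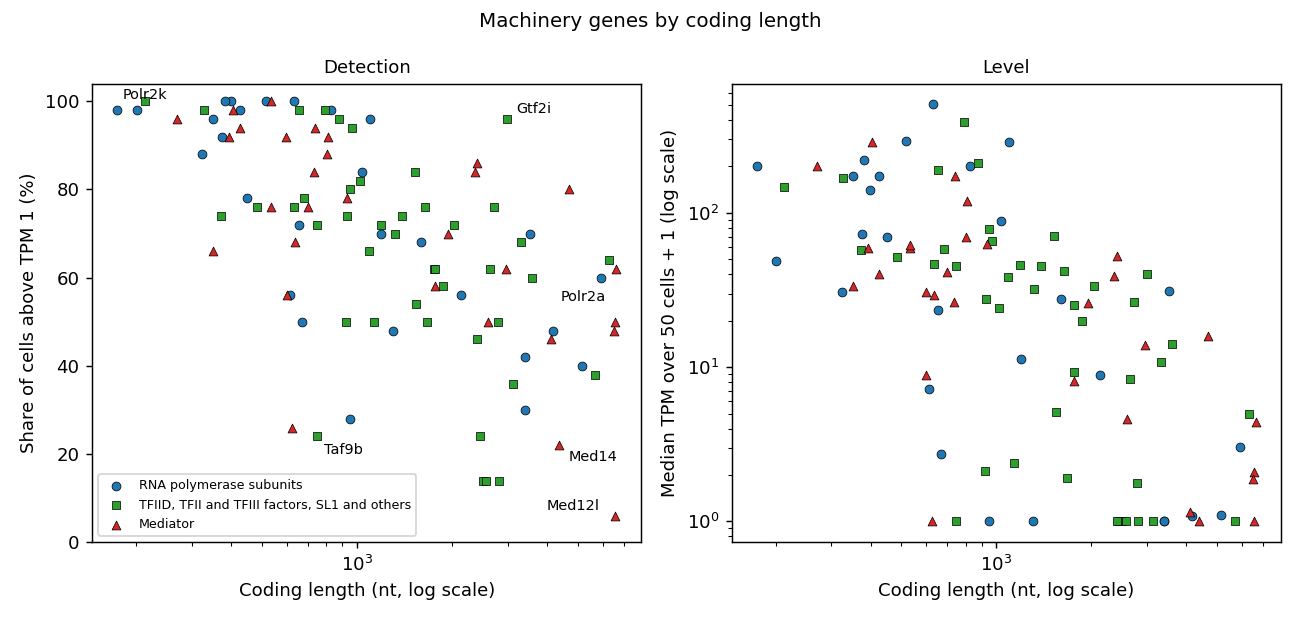
Share of cells above TPM 1 (left, %) and median TPM + 1 over the 50 cells (right, log scale) against coding length in nucleotides (log scale) for the 101 machinery genes, by class. Both fall from the short polymerase subunits such as Polr2k to long genes such as Polr2a, Med14 and Med12l, with Gtf2i above and Taf9b below the trend.

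How many machinery genes a cell showed depended on the cell. The median cell had 73 of the 101 above TPM 1, with quartiles at 61.5 and 77, and the lowest had 25 (cell 4-6), the next 42 (cell 2-13) and the highest 94 (cell 4-10). In percent, the median over cells was 72.3% of the machinery genes and 52.4% of all rows. Cell 4-6 had 24.8% and 20.2%. Over the 50 cells the number of machinery genes ran with the number of all other genes above TPM 1 at a Pearson r of 0.926 and a rho of 0.896. Without cells 4-6 and 3-8, the farthest from the median, r was 0.903. The labels name no separate cultures among these cells, and the relation is a description of them. The medians for the 4 first numbers in the cell titles lay between 70 and 73, so no such number stood apart.

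**Figure D5:**
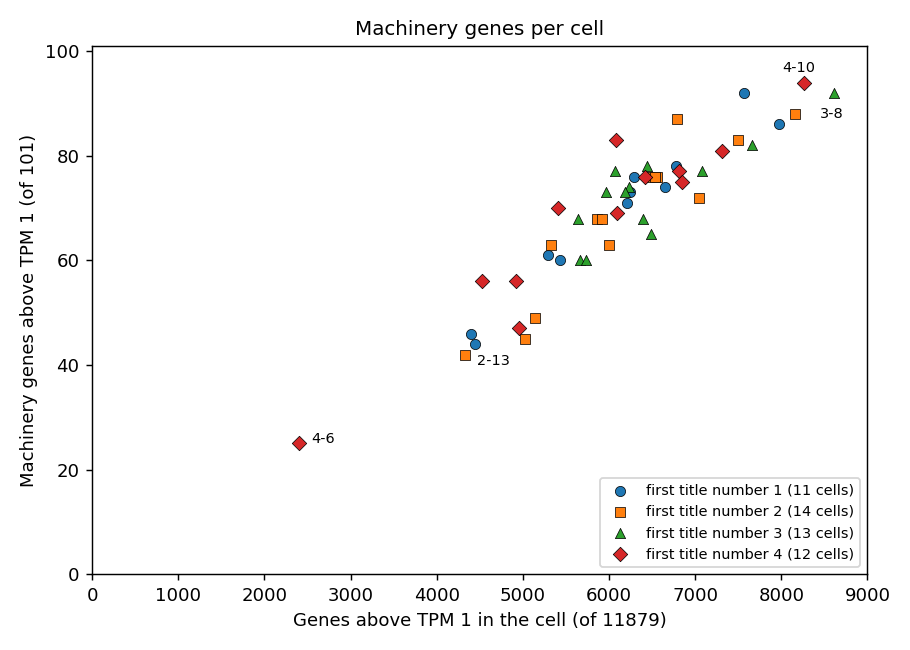
Number of machinery genes above TPM 1 (of 101, vertical axis) against the number of all genes above TPM 1 (of 11879, horizontal axis) in each of the 50 cells, with a marker for each first title number. The points form a rising band from cell 4-6, with 25 machinery genes among 2400 genes, to cells 4-10 and 3-8 at the upper right.

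The machinery made up a small portion of each transcriptome. Its summed TPM had a median of 7259, or 0.753% of a cell's TPM, and ran from 5186 (0.545%, cell 4-3) to 11813 (1.25%, cell 4-1). In cell 4-1, 3715 TPM came from Polr2i alone, and the sum without it was 8098. A share of 35.8% of the 50-base stretches of the Polr2i transcript occurs in the overlapping Tbcb. Cell 4-6 had 0.594% of its TPM in the 25 genes it showed. In that cell the detected machinery genes had a median of 211 TPM, against a median of 56.5 over the 50 cells and 35.4 in cell 4-3. Over the cells, that median fell as the number of detected genes rose, with a rho of -0.67 and a Pearson r of -0.72, and of -0.67 without cells 4-6 and 3-8. TPM sums to a common total, so fewer detected genes and higher values of each cannot be told apart.

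Machinery genes found in nearly all but not all cells were, by that choice, missed in some. The 20 machinery genes detected in 45 to 49 cells were at or below TPM 1 in 43 pairs of a gene and a cell, spread over 17 cells. Of these pairs, 19 (44.2%) were in the 5 cells with the fewest genes, which make up 10% of the cells and had 2400 to 4528 genes, and 9 were in cell 4-6. These cells were taken for their few genes above TPM 1, so an excess of such pairs there is built in. The same share over all rows detected in 45 to 49 cells was not computed, so the value is not a result about the machinery. Polr2a was listed at 0 in cell 4-6, where Polr2e stood at 886 TPM.

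The partners of these complexes that bear other names were listed separately, and 37 of 45 had a row. Their median share was 66%, from 12 to 50 cells, against a median of 52% over all rows. Of the 37, 26 (70.3%) were in at least 25 cells, against 53.2% of all rows. The TFIIH partners ranged from Mnat1, which assembles the TFIIH kinase, in 50 cells at a median of 39.2 TPM, to Ercc2, a DNA helicase, in 22 at a median of 0.198 TPM. Cdk8, the kinase of the Mediator module, was in 27 cells at a median of 1.83 TPM and its alternative Cdk19 in 14, low like Med12 and Med13. Tbp, the TATA-binding protein itself, was in 34 cells at a median of 35.1 TPM. The Tbp-like gene Tbpl1 was in 47 cells, and Btaf1, which removes TBP from DNA, in 19. Of the Pol I subunits, Znrd1, a small one, was in 45 cells, Twistnb in 38 and Cd3eap in 21. Among elongation factors Tcea1, which rescues stalled Pol II, was in 49 cells and Ell2 in 19, and the mitochondrial polymerase gene Polrmt was in 20.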

How the data were processed

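Single iHECs were sorted, their cDNA was amplified with the Discover-sc WTA Kit V2 and libraries were made with the TruePrep DNA Library Prep Kit V2. No molecular identifiers were named, and the sources name different sequencers. Per the labels, the authors used bcl2fastq, HISAT2 2.1.0, SAMtools 0.1.19 and StringTie 1.3.4 on mm10, and deposited TPM for 11879 genes with no read counts, so depth is unknown. How rows were selected was not given in the sources used here. Columns summed to 942975 to 970894 TPM. All 50 cells form 1 group with no replicate, no cell was left out, no doublet caller was run, and cells were not clustered. The first number in the titles is 1 to 4 (11, 14, 13 and 12 cells), and its meaning was not given.

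Shares above TPM 1, medians, ranges and the SD of log2(TPM + 1) were computed in Python 3.11.15 with pandas 2.3.3, numpy 2.4.6 and scipy 1.17.1, on scripts tested on simulated data. Coding lengths, positions and exon overlaps came from GENCODE M21 on GRCm38 (mm10), where 101 of 101 genes matched, 1 of them by a synonym. The transcript used was the principal protein-coding one. The exons of 40 genes overlap those of another gene, and 26 genes share at least 10% of their 50-base stretches with transcripts of another gene, of which 20 overlap it. The library kit does not mark strand, so such reads cannot be told apart. Of 7 listed symbols with no row, Polr1f, Polr1g, Polr1h and Taf4 have rows under other symbols, and Taf1a, Taf7l and Gtf2a1l were not analysed here.

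The genes and lists were chosen with earlier results of these data known. Genes named in the text were the catalytic subunits, alternative pairs, the highest and lowest share in each complex, the 10 highest medians, the 10 largest SDs and those detected in every cell, 57 in all. Gtf2a2, Med14, Med18, Med29, Polr2i, Polr2l, Taf1, Taf10 and Taf1b, and Tbp, Twistnb and Bdp1 among the partners, were named after their values were seen. Alternatives were levels of TPM 0, 5 and 10, a pseudocount of 0.1 in place of 1, first title numbers left out in turn, cells with fewer than 5000 genes left out, core subunits only, genes at 0 in all cells left out, and TPM rescaled without ribosomal protein genes.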

Additional observations from a re-analysis of the deposited data

How the results depend on the processing

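No paired analysis was possible because the cells form 1 group. The alternatives covered 24 results and the shares of 57 named genes, and no value changed sign. A share counted as kept within the exact 95% interval of a single gene in 50 cells, which is only a wide yardstick for a median over many genes. Counts of genes counted as kept within a fixed ratio, and other values within the SD over the first title numbers. TFIID, at 60%, thus counted as kept at 72% with core subunits only. The count of 82 genes in at least 25 cells counted as kept at 72 (TPM 5) and 66 (TPM 10). All 24 results were kept after rescaling without 78 ribosomal protein genes, without first title number 1 or 3, and after dropping genes at 0 in all cells (0 genes).

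The level for detection mattered most. With every value above 0 counted, Polr2m was at 100%, TFIID at 74%, machinery genes per cell at 78, cells with all 12 Pol II subunits at 50%, rho of share with level at 0.866 and with coding length at -0.56. At TPM 5 there were 69 genes per cell and 18% of cells with all 12 Pol II subunits. At TPM 10 these were 64.5 and 12%, with Taf15 at 30%, the Pol III factors at 48%, the TFII-I family at 50%, and rho of 0.953 with level and -0.71 with coding length. Without title number 2 the shared subunits were at 100%, and without number 4 both they and Pol II were. In the 43 cells with at least 5000 genes the shared subunits, Pol II and Polr2m were at 100% and 21.8% of values were at 0. The 89 core subunits gave 66.5 genes per cell and 22.8% of values at 0. A pseudocount of 0.1 raised the median SD from 2.14 to 3.45, since it spreads the values at 0.

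An alternative added after seeing the data kept the 75 genes with under 10% of shared stretches. The median share was 70%, and 58 genes reached 25 cells. The shared subunits, of which only Polr2e was left (Polr2h, the one often missing, was among those removed), were at 100%. Pol II, with 4 of 7 genes left, was at 84%, and TFIID at 48%, against 60% with all its genes. Genes per cell were at 52.5, values at 0 at 27.2%, and rho with coding length at -0.57. Of the named shares, 7 were higher at TPM 0, 2 lower at TPM 5 and 12 lower at TPM 10, while 5 were higher without the cells under 5000 genes, 2 without title number 2, 2 without number 4 and 1 after rescaling.

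What remains limited is the unknown depth, with which a value of 0 cannot be read as absence, and the single group of cells without replicates. Amplified copies of a molecule were not told apart.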
